A study of Mus musculus with 32 samples.

Results

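The 9 genes described here encode proteins that join, divide or fold the membranes of mitochondria. They were fixed by name as *Mfn1*, *Mfn2*, *Opa1* and *Oma1* for fusion, *Dnm1l*, *Fis1* and *Mff* for fission, and *Immt* and *Chchd3* for cristae, and all 9 were found by symbol among the 54838 genes of the count table. RNA had been sequenced from the tibialis anterior (TA) muscle of wild-type (WT) mice and of mice with a knockout (KO) of *Mtm1*, both labelled C57BL6/J, aged 1 day (P1), 14 days (P14), 21 days (P21) or 35 days (P35). There were n=4 libraries for each genotype and age, so 32 libraries in 8 groups, and the count table is the only measurement used. Per the study's methods the KO line was first made in 129S2PAS mice and was later rederived onto C57BL6J, and no restriction of the deletion to a tissue is stated, so that changes in muscle fibres and in other cells of the muscle are measured together. The labels name the tissue only as skeletal muscle, and the TA is named in the study's text. Neither source states whether libraries of the same replicate number shared a litter or a day of preparation, so that the *P*-values measure the spread between these libraries.

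Mitochondria in muscle fibres form a network that is constantly joined and cut. Fusion of the outer membrane is carried out by the mitofusins MFN1 and MFN2, and that of the inner membrane by the dynamin-like GTPase OPA1. OMA1 is a metalloprotease of the inner membrane that cleaves OPA1 under stress, which stops fusion of the inner membrane. Fission needs the GTPase DRP1, encoded by *Dnm1l*, which is recruited from the cytosol to the outer membrane by receptors such as MFF, and FIS1 is a further outer membrane protein linked to fission. Cristae, the folds of the inner membrane that carry the respiratory chain, are held open at their necks by the MICOS complex, of which MIC60 (encoded by *Immt*) is the core subunit and MIC19 (encoded by *Chchd3*) binds to it. Myotubularin, the product of *Mtm1*, is a phosphatase of phosphoinositides in endosomal and other membranes and is not one of these factors.

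The genes lie on 6 chromosomes, and 3 pairs share one. In GRCm38 with GENCODE M21, *Mfn1* lies on chromosome 3 at chr3:32529465-32579239 (plus strand). *Mfn2* lies on chromosome 4 at chr4:147873599-147904704 (minus strand), as does *Oma1* at chr4:103313812-103371868 (plus strand). *Opa1* occupies chr16:29579334-29654884 (plus strand) and *Dnm1l* chr16:16312230-16358959 (minus strand). *Fis1* is at chr5:136953275-136966234 (plus strand) and *Mff* at chr1:82724890-82752394 (plus strand). *Immt* and *Chchd3* are both on chromosome 6, at chr6:71831331-71877388 (plus strand) and chr6:32790976-33060260 (minus strand). All 9 are annotated as protein coding. Other annotated genes overlap 5 of them (*Mfn2*, *Dnm1l*, *Mff*, *Immt* and *Chchd3*), and none of those had more than 64 counts in any library, whereas the members they overlap had at least 4836.

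The promoters of 6 of the genes are shown because 5 of them (*Mfn1*, *Mfn2*, *Opa1*, *Immt* and *Chchd3*) were lower in KO muscle at P35 by the strictest rule used here and *Fis1* was higher. Each is the stretch of 250 bases before a RefSeq start site in GRCm38.p6 (where a gene has several, the one nearest to the start of the gene in GENCODE), 5′ to 3′ on the strand of the gene. Capitals mark matches to either of 2 motifs that were chosen after the sequences had been seen, the NRF1 consensus and the ETS core CCGGAAG, searched on both strands.
*Mfn1*, chr3:32529232-32529481, plus strand: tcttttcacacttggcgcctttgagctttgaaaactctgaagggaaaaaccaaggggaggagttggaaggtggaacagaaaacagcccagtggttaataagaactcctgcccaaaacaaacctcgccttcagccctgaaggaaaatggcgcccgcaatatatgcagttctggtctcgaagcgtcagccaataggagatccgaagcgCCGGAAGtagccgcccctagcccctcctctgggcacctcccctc
*Mfn2*, chr4:147904699-147904948, minus strand: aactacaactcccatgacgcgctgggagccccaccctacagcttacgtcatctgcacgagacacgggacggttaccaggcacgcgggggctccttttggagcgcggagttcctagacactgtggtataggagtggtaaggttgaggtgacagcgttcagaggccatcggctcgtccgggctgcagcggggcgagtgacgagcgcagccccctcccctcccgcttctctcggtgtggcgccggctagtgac
*Opa1*, chr16:29579084-29579333, plus strand: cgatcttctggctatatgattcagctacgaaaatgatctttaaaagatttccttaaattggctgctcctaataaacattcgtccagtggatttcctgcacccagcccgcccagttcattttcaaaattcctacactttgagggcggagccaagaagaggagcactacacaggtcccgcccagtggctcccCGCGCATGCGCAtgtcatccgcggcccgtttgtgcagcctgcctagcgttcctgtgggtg
*Immt*, chr6:71831070-71831319, plus strand: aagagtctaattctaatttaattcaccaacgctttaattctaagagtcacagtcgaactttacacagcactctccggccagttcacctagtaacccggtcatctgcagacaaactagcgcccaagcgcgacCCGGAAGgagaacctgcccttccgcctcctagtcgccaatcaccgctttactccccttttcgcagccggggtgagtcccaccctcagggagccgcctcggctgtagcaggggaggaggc
*Chchd3*, chr6:33060261-33060510, minus strand: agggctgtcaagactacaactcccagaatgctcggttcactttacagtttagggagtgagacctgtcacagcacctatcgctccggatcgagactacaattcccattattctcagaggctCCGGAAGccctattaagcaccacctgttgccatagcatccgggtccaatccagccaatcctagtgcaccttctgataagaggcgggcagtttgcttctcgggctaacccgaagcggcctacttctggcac
*Fis1*, chr5:136953025-136953274, plus strand: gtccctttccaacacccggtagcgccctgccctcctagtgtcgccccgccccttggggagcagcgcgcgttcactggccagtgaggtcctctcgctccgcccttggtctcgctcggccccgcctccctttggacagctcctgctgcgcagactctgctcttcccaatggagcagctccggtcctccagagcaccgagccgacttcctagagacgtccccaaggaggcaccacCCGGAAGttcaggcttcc

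The NRF1 consensus was present in 1 of the 9 genes, *Opa1*, where the match began at position -60 from the start site. It was in at least 1 promoter of 1.41% of all 27025 genes and in 1.27% of their 32851 promoters, each taken as 300 bases (250 before and 50 after the start). The ETS core was found in a promoter of 5 of the 9 genes, namely *Mfn1* (from position -44), *Dnm1l* (after the start site), *Fis1* (from -18), *Immt* (from -119) and *Chchd3* (from -130). Of all promoters 8.86% held it, and of all 27025 genes 9.93% held it in at least 1 promoter. The estrogen-related receptor element TCAAGGTCA was in none of the 9, in 0.466% of all genes and in 0.423% of all promoters. *Fis1*, which was higher in KO muscle at P35, and *Chchd3*, which was lower, both held the ETS core, and *Mfn2*, which was lower too, held none of the 3 motifs in any of its promoters. These matches are of letters only, and no binding was measured.

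Counts summed to between 49321035 and 85631408 per library (median 59926198), and the 9 genes had between 515 and 43192 counts each in every library, all of them whole numbers. Levels are given as CPM, in which counts are scaled to the same library total, after TMM scaling of all 32 libraries together. *Mtm1* itself, which encodes myotubularin, was at 5.26 to 6.02 CPM in WT and 2.32 to 3.91 CPM in KO at P1, and at 20.7 to 24.9 CPM in WT and 3.32 to 3.95 CPM in KO at P35. The KO libraries lay below all WT libraries of their age at each of the 4 ages, and the change passed at P14, P21 and P35 (adjusted *P* = 5.27e-06, 8.13e-06 and 1.83e-06) but not at P1 (adjusted *P* = 0.0669). Genes encoded by mitochondrial DNA took a median of 3.71% of counts in WT and 3.28% in KO at P1, and 16.2% and 10.4% at P35, where the ranges were 12.4% to 17.9% and 10.3% to 10.5%. Dividing by library totals in place of TMM moved the median log2 difference of all genes by 0.188 at P21 (from 0.00825 to 0.196) and by 0.404 at P35 (from 0.0352 to 0.439), and every change below is relative to the TMM scale unless stated otherwise.

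In WT muscle all 9 genes rose from P1 to P14. *Mfn2* rose from 145, 176, 158 and 152 CPM in the 4 WT libraries at P1 to 639.9, 572, 699 and 753 CPM at P14. Its log2 fold change was 2.07 (SE 0.11, adjusted *P* = 1.93e-07), the largest of the 9, and the smallest was that of *Dnm1l*, which rose from 74.6 ± 4.52 to 137 ± 7.91 CPM (mean ± SD, n=4; log2 fold change 0.86, SE 0.066, adjusted *P* = 2e-06). The 4 fusion genes had log2 fold changes between 1.49 and 2.07, the 2 cristae genes 1.48 and 1.60, and the 3 fission genes between 0.86 and 0.96, so the fission genes stood below the other 6. No WT library at P14 overlapped the WT range at P1 for any of the 9, and the share of all genes without overlap was not counted. Of the 17435 genes tested in WT muscle, 13838 passed in either direction, and 37.3% passed as higher at P14. Under library totals 7 of the 9 passed (not *Dnm1l* and *Fis1*), with log2 fold changes between 0.098 and 1.29 against a median of -0.85 over all genes, and the genes that passed split into 2551 higher and 12277 lower in place of 6496 and 7342.

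KO muscle showed this step as well. From P1 to P14 all 9 genes rose in KO, with log2 fold changes between 0.88 (*Mff*) and 2.05 (*Mfn2*), where 34.2% of all genes tested passed as higher. The difference between KO and WT in this step lay between -0.063 (*Mff*) and 0.12 (*Oma1*), and passed for 0 of the 9 in edgeR (adjusted *P* = 0.931 or more, 0 of 9 at an unadjusted *P* under 0.05, and 0 of 9 in DESeq2), where 0.0269% of all genes passed. The 95% intervals of these differences were wide, for *Mfn2* from -0.42 to 0.41. Under library totals the split of the genes that passed in KO was 2447 higher and 11735 lower in place of 6064 and 7017, and 7 of the 9 passed (not *Fis1* and *Mff*).

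**Figure D1:**
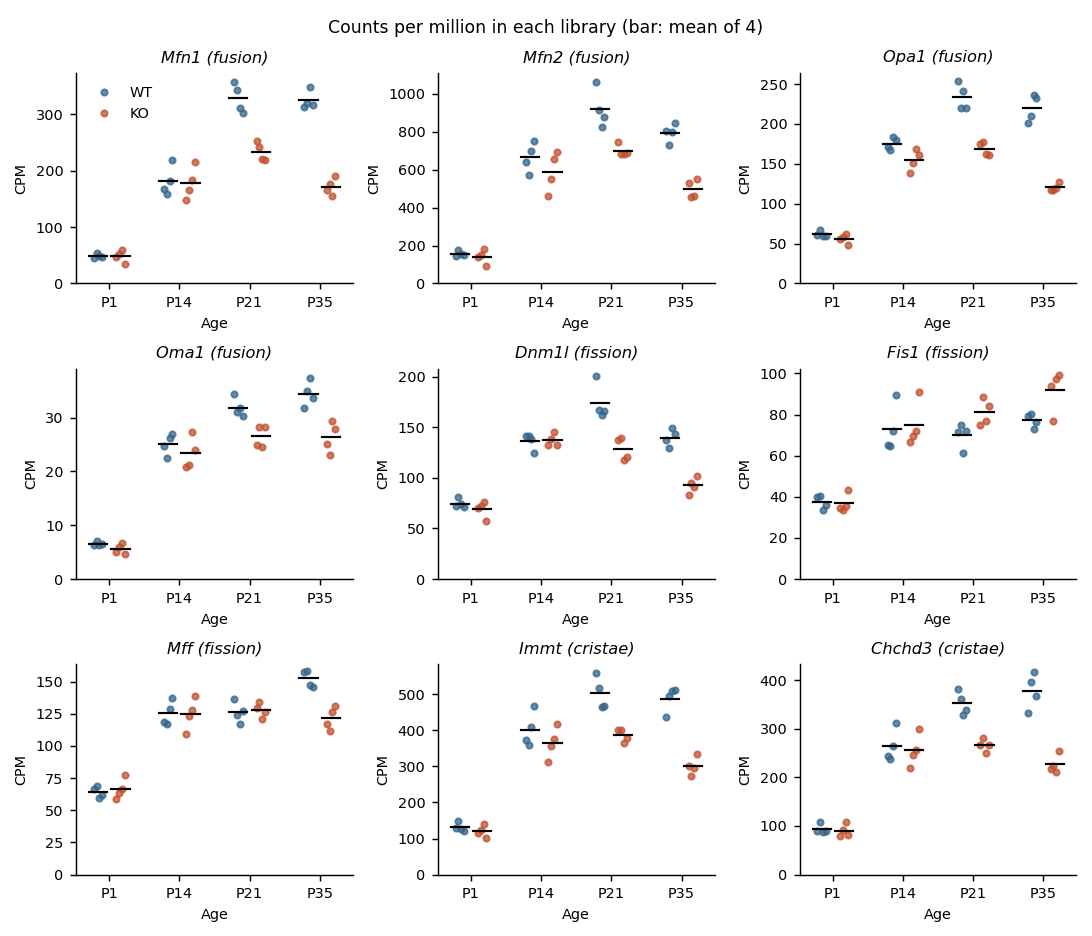
CPM of each gene (vertical axis, from 0) in every library against age, with WT in blue, KO in orange and a bar at the mean of the 4 libraries. All 9 genes rose from P1 to P14 in both genotypes, and from P21 the KO libraries of 7 genes lay below those of WT. At P21 *Fis1* lay above WT by a very small margin and *Mff* overlapped WT. CPM are on the TMM scale, and with library totals *Oma1* was not lower at P35.

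Between P14 and P21, 6 of the 9 genes rose further in WT muscle, where 13% of all genes passed as higher. *Mfn1*, the other mitofusin gene, went from 167, 158, 182 and 219 CPM to 357, 343, 311 and 303 CPM, with no overlap (log2 fold change 0.84, SE 0.11, adjusted *P* = 0.00136). This was the only change over 1.5-fold with an adjusted *P* under 0.01 among the 9 in this step. *Mfn2*, *Opa1*, *Oma1*, *Dnm1l* and *Chchd3* rose by between 0.33 (*Oma1*) and 0.45 (*Mfn2*) on the log2 scale. *Immt* missed the threshold (log2 fold change 0.31, adjusted *P* = 0.0553), and *Fis1* and *Mff* had values of -0.074 and -0.0037. The calls of *Mfn2* and *Chchd3* were lost without WT P14 replicate 1 (adjusted *P* = 0.0619 and 0.0599) or replicate 2 (0.0502 and 0.0514), and *Immt* passed without WT P14 replicate 4 (0.00983), without WT P21 replicate 3 (0.0468), without the mitochondrially encoded genes (0.0449) and in DESeq2 (0.0173). Under library totals 5 of the 9 passed (*Mfn1*, *Mfn2*, *Opa1* and *Chchd3* as higher, *Mff* as lower), and the genes that passed split into 1008 higher and 3289 lower in place of 1992 and 1937.

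In KO muscle 1 of the 9, *Mfn1*, rose between P14 and P21, from 148, 166, 183 and 216 CPM to 253, 241, 220.1 and 219 CPM (log2 fold change 0.37, SE 0.11, adjusted *P* = 0.0331). Of all genes tested 13.4% passed as higher in this step. The call of *Mfn1* was lost when any 1 of 7 of the 8 libraries was left out (all but KO P14 replicate 4), with adjusted *P* between 0.0512 and 0.0998, and with a replicate block (0.0716). The other 8 genes had log2 fold changes between -0.11 (*Dnm1l*) and 0.23 (*Mfn2*) and did not pass.

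From P21 to P35, 2 of the 9 genes passed in WT muscle and 5 in KO muscle. In WT, *Dnm1l* fell from 201, 167, 163 and 166 CPM to 138, 129, 149 and 143 CPM (log2 fold change -0.33, adjusted *P* = 0.0218). *Mff* rose from 137, 124, 117 and 127 CPM to 158, 159, 148 and 146 CPM (log2 fold change 0.26, adjusted *P* = 0.0217). These 2 of 9 stand beside 17.7% of all genes that passed in either direction. Both calls were fragile, since that of *Dnm1l* was lost without WT P21 replicate 1 (adjusted *P* = 0.0502), WT P35 replicate 2 (0.0625) or WT P35 replicate 4 (0.0522), and that of *Mff* without WT P21 replicate 2, 3 or 4 or WT P35 replicate 2 (0.0508 to 0.0605). In KO, the mitofusins, *Opa1*, *Dnm1l* and *Immt* fell, with log2 fold changes of -0.43 (*Mfn1*), -0.47 (*Mfn2*), -0.47 (*Opa1*), -0.46 (*Dnm1l*) and -0.34 (*Immt*) and adjusted *P* between 0.00244 and 0.0124, where 12% of all genes passed as lower. For each of the 5, all KO libraries at P35 lay below all KO libraries at P21, and the share of all genes that did so was not counted. *Chchd3* had a value of -0.22 (adjusted *P* = 0.0646) and passed without KO P35 replicate 4 (0.028) and in DESeq2 (0.034), and *Fis1* had 0.19 (adjusted *P* = 0.156) and passed as higher without KO P35 replicate 2 (0.0316) and under library totals (0.0172), which also called *Mfn2* lower in WT (0.0312). Under library totals the genes that passed split into 1037 higher and 1577 lower in WT, in place of 1503 and 1153, and into 3694 higher and 931 lower in KO, in place of 1871 and 1884.

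KO and WT muscle were next compared within each age, which is the comparison the study was built on. At P1, 0 of the 9 genes passed in edgeR, where 0.243% of all genes did. The log2 differences (KO minus WT) ran from -0.21 (*Oma1*) to 0.07 (*Mff*), 0 of 9 had an unadjusted *P* under 0.05, 0 passed in DESeq2, and KO and WT overlapped for every gene. The widest spread was that of *Mfn2*, at 140.0, 149.6, 181 and 90.1 CPM in KO against 145, 176, 158 and 152 CPM in WT. The KO library of replicate 4 was the lowest of the 8 P1 libraries for *Mfn1*, *Mfn2*, *Opa1*, *Oma1*, *Dnm1l* and *Immt* and the highest for *Fis1* and *Mff*. The summed level of 6 keratinocyte markers ran from 1528 to 5906 CPM over the P1 libraries of both genotypes and did not exceed 6.34 CPM at later ages, and its part in the P1 levels was not tested.

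At P14, 0 of the 9 passed in edgeR and 0 in DESeq2, where 0.0954% of all genes passed in edgeR. The lowest log2 differences were those of *Opa1* (-0.18, SE 0.07, unadjusted *P* = 0.0287, adjusted *P* = 0.668), the 1 member with an unadjusted *P* under 0.05, and of *Mfn2* (-0.18, adjusted *P* = 0.923). Of the 15728 genes tested at P14, 1072 had an unadjusted *P* under 0.05. *Opa1* was at 171, 167, 183 and 180.5 CPM in WT against 139, 151, 168 and 161 CPM in KO, where the KO library with the highest value overlapped WT by a small margin. KO was below WT in each of the 4 same-numbered pairs for *Opa1*, *Mfn2* and *Immt*, and in 0 of the 4 for *Fis1*. For *Fis1* the replicate 3 pair was nearly equal (72.182 CPM in WT and 72.185 CPM in KO). The share of all genes with the same sign in all 4 pairs was not counted. With the replicate number as a block *Opa1* passed (log2 difference -0.19, adjusted *P* = 0.0404), the 1 of the 9 that did so, and *Mfn2* and *Immt* had unadjusted *P* of 0.0231 and 0.0222 in that edgeR fit (adjusted *P* = 0.152 and 0.149). The share of 0.0954% belongs to the fit without a block. That of the blocked fit is not given here, so whether 1 of 9 exceeds it cannot be told. *Immt* and *Oma1* had values of -0.14 and -0.11. *Fis1*, *Mff*, *Mfn1*, *Dnm1l* and *Chchd3* had log2 differences between -0.05 and 0.033.

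By P21 the 4 fusion genes were lower in KO muscle. *Mfn1* was at 357, 343, 311 and 303 CPM in WT against 253, 241, 220.1 and 219 CPM in KO. Every KO library lay below every WT library, with a log2 difference of -0.48 (SE 0.074, adjusted *P* = 0.00263). *Mfn2* was at 1061, 916, 823 and 876 CPM in WT against 746, 684, 682 and 686 CPM in KO, again without overlap (log2 difference -0.38, SE 0.081, adjusted *P* = 0.0107). *Opa1* stood at 253, 219.8, 241 and 219.8 CPM in WT against 175, 177, 162 and 161 CPM in KO (log2 difference -0.46, SE 0.069, adjusted *P* = 0.00247). The lowest WT library of *Opa1* was thus well above its highest KO library. *Oma1*, the protease that acts on OPA1, was expressed at a lower level, at 34.4, 31, 31.7 and 30.4 CPM in WT against 24.9, 28.3, 24.5 and 28.3 CPM in KO. Its log2 difference of -0.25 (SE 0.075, adjusted *P* = 0.0401) was the smallest of the 4, and its call was lost when any 1 of 6 libraries was left out (WT P21 replicates 1, 2 and 3, KO P21 replicates 1, 3 and 4; adjusted *P* 0.0524 to 0.0933). The call was also lost without a filter on low counts (adjusted *P* = 0.0582), with a replicate block (0.0655) and in 1 fit of all 32 libraries (0.0646), and that fit lost *Mfn2* as well (0.0541).

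Of the 3 fission genes 1 passed at P21. *Dnm1l*, the gene of DRP1, was at 201, 167, 163 and 166 CPM in WT against 137, 139, 118 and 121 CPM in KO (log2 difference -0.42, SE 0.085, adjusted *P* = 0.00855), with no overlap. *Mff*, a receptor of DRP1, was at 137, 124, 117 and 127 CPM in WT against 129.7, 134, 121 and 127 CPM in KO, and the groups overlapped (log2 difference 0.032, 95% interval -0.11 to 0.17, adjusted *P* = 0.753). *Fis1* was at 71.4, 74.8, 61.3 and 72.1 CPM in WT against 74.9, 88.7, 77 and 84 CPM in KO. All KO values were the higher ones, though the lowest of KO (74.895) barely exceeded the highest of WT (74.822). It did not pass (log2 difference 0.23, SE 0.08, adjusted *P* = 0.0717), and it passed without KO P21 replicate 1 (adjusted *P* = 0.0472) and with a replicate block (0.0315).

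Both cristae genes were lower in KO muscle at P21 as well. *Immt* was at 561, 519, 466 and 468 CPM in WT against 402, 399.9, 365 and 379.6 CPM in KO (log2 difference -0.37, SE 0.073, adjusted *P* = 0.00824). *Chchd3* was at 382, 361, 329 and 339 CPM in WT against 267, 281, 251 and 267 CPM in KO (log2 difference -0.39, SE 0.066, adjusted *P* = 0.0039). In both genes the KO libraries lay below all WT libraries. Counted over the 9 genes, 7 passed as lower at P21, where 9.57% of all genes did, and for the same 7 the KO range lay wholly below the WT range, as for 11% of all genes. None of the 9 met the DEG rule of an adjusted *P* under 0.01 and a change over 1.5-fold, which 1.5% of all genes met as lower. The median log2 difference of the 9 was -0.38, and that of all genes tested was 0.0083.

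**Figure D2:**
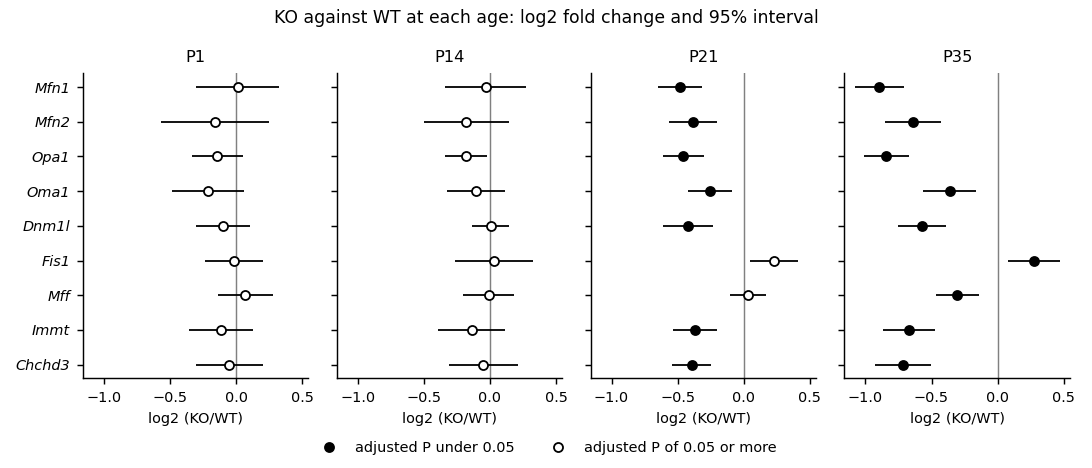
Log2 fold change of KO against WT (horizontal axis) for each gene at P1, P14, P21 and P35, as points with 95% intervals from edgeR, filled where the adjusted *P* was under 0.05. No point is filled at P1 or P14, 7 are filled at P21, all to the left of 0, and 9 at P35, where *Fis1* is the only one to the right of 0. Under library totals the P35 points of *Oma1* and *Mff* fall right of 0 as well, at 0.0375 and 0.0978.

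At P35 all 9 genes passed, 8 as lower in KO muscle and 1 as higher, although under library totals *Oma1* and *Mff* were no longer below WT. *Mfn1* was at 313, 321, 348 and 317 CPM in WT against 165, 176, 155 and 190.3 CPM in KO, so that its mean in KO was 0.529 of that in WT. Its log2 difference of -0.89 (SE 0.083, adjusted *P* = 0.000118) was the largest of the 9. *Opa1* followed, at 201, 209.9, 236 and 233 CPM in WT against 118, 117, 120.2 and 128 CPM in KO (log2 difference -0.84, SE 0.076, adjusted *P* = 0.000112). Both genes thus had a narrow KO range far below that of WT. *Mfn2* was at 805, 730.3, 800.1 and 846 CPM in WT against 529.7, 458, 463 and 554 CPM in KO (log2 difference -0.64, SE 0.094, adjusted *P* = 0.000765). *Oma1* showed the smallest difference of the fusion genes, at 31.7, 34.9, 37.4 and 33.7 CPM in WT against 25, 23.1, 29.3 and 27.9 CPM in KO (log2 difference -0.36, SE 0.09, adjusted *P* = 0.0105). It kept its direction and its call without any 1 of the 8 libraries, but under library totals its log2 difference was 0.0375 (adjusted *P* = 0.74).

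Among the fission genes *Dnm1l* was lower in KO at P35, at 138, 129, 149 and 143 CPM in WT against 82.7, 95.1, 90.9 and 101 CPM in KO (log2 difference -0.57, SE 0.082, adjusted *P* = 0.000693). Its change was just short of 1.5-fold, with a fitted KO level of 0.673 of WT. *Mff* was lower as well, at 158, 159, 148 and 146 CPM in WT against 117, 111, 127 and 131 CPM in KO (log2 difference -0.30, SE 0.074, adjusted *P* = 0.00952). Under library totals the value of *Mff* was 0.0978 (adjusted *P* = 0.234) and that of *Dnm1l* was -0.17 (adjusted *P* = 0.112). *Fis1* was the 1 gene higher in KO, at 79.2, 80.3, 73.1 and 76.6 CPM in WT against 93.8, 77.1, 97.4 and 99 CPM in KO. In 3 of the 4 KO libraries it was above all of WT, and replicate 2 lay within the WT range (log2 difference 0.27, SE 0.087, adjusted *P* = 0.0312). The call of *Fis1* was lost when any 1 library other than KO P35 replicate 2 was left out (WT P35 replicates 1 to 4, KO P35 replicates 1, 3 and 4; adjusted *P* 0.0513 to 0.104), and its adjusted *P* without that library was 0.00478. It was lost with a replicate block (0.0729) and in 1 fit of all 32 libraries (0.063), too.

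The cristae genes were again lower at P35. *Immt* was at 438, 495, 508 and 512 CPM in WT against 302, 274, 296 and 334 CPM in KO (log2 difference -0.67, SE 0.087, adjusted *P* = 0.000441). *Chchd3* was at 332, 397, 416 and 368 CPM in WT against 217, 223, 211 and 255 CPM in KO (log2 difference -0.71, SE 0.095, adjusted *P* = 0.00048). The highest KO library was below the lowest WT library in both. Over the 9 genes, 8 passed as lower, against 20.1% of all genes, and 1 passed as higher, against 21.4%. Of the 8, *Oma1*, *Mff* and *Dnm1l* passed as lower on the TMM scale but not with library totals. The KO range lay wholly below the WT range for 8 of the 9, against 20.4% of all genes. *Mfn1*, *Mfn2*, *Opa1*, *Immt* and *Chchd3* met the DEG rule as lower, as 7.52% of all genes did, and under library totals none of these 5 met it. Calls of lower genes were the least firm under library totals, where 6 of the 9 passed (5 lower and *Fis1* higher), the log2 differences of *Mfn1*, *Opa1*, *Chchd3*, *Immt* and *Mfn2* were -0.49, -0.44, -0.31, -0.27 and -0.24, and that of all genes had a median of 0.44. The call of *Fis1* was firmer under library totals (log2 difference 0.67, adjusted *P* = 9.52e-05 in edgeR), where it was the 1 member that met the DEG rule. With that scaling the genes that passed split into 8474 higher and 924 lower in place of 3333 and 3129, and at P21 into 4738 higher and 584 lower in place of 1735 and 1452. At P21 it left *Oma1* short of the threshold (adjusted *P* = 0.53) and called *Fis1* and *Mff* higher (log2 differences 0.42 and 0.22).

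Whether the KO effect itself changed between ages was tested as an interaction of genotype and age. Between P14 and P21 the fitted effect became lower for 7 of the 9 genes, most for *Mfn1* (-0.47, 95% interval -0.82 to -0.12) and *Dnm1l* (-0.44, 95% interval -0.69 to -0.20). The median change of all genes was 0. In edgeR 0 of the 9 passed, where 1.42% of all genes did. An unadjusted *P* under 0.05 was reached by 4 of the 9, and by 2398 of the 18583 genes tested. *Dnm1l* came closest (adjusted *P* = 0.0568) and passed with RLE size factors (0.0442), without the mitochondrially encoded genes (0.042), with only the 16 libraries of the 2 ages (0.0389) and in DESeq2 (0.00781). Between P21 and P35 the fitted effect became lower for 8 of the 9 (6 under library totals, where *Dnm1l* and *Oma1* turned to 0.062 and 0.10), and *Opa1* passed (difference -0.40, SE 0.11, adjusted *P* = 0.0444), where 1.51% of all genes passed as lower. Under library totals the difference of *Opa1* was -0.17 (adjusted *P* = 0.249), and its call was also lost with RLE size factors (0.0606), no filter on low counts (0.175), a replicate block (0.0539) and only the 16 libraries of the 2 ages (0.0618). It held in 5 of the 16 fits that left out 1 library. It was lost without any 1 of WT P21 replicates 2, 3 and 4, WT P35 replicates 3 and 4, KO P21 replicates 1, 2 and 3 and KO P35 replicates 1, 2 and 3 (adjusted *P* 0.0504 to 0.106). *Mff* had a difference of -0.35 (adjusted *P* = 0.101) and *Mfn1* one of -0.42 (adjusted *P* = 0.193). The other members did not pass, and an order of the 9 by the timing of their change was not tested. Library totals split the genes that passed in this test into 476 higher and 21 lower at P21 against P14, in place of 202 and 61, and 632 higher and 96 lower at P35 against P21, in place of 126 and 280.

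Ratios of 2 counts within a library do not depend on how libraries are scaled. For the mitofusins, *Mfn2* over *Mfn1* was 3.21, 3.3, 3.22 and 3.23 in WT and 2.95, 2.87, 3.03 and 2.54 in KO at P1, so all KO values were lower. At P35 it was 2.57, 2.28, 2.3 and 2.67 in WT and 3.21, 2.6, 2.98 and 2.91 in KO, where 1 KO value fell within the WT range and the others were higher. The log2 differences were -0.19 at P1 (exact permutation *P* = 0.0286, adjusted *P* = 0.0914) and 0.25 at P35 (exact permutation *P* = 0.0571, adjusted *P* = 0.114). Read by age, the ratio in WT went from a geometric mean of 3.24 at P1 to 3.68 at P14, 2.79 at P21 and 2.45 at P35, and in KO it stayed between 2.84 and 3.3.

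The ratio of the protease gene to that of its substrate, *Oma1* over *Opa1*, was 0.136, 0.141, 0.132 and 0.138 in WT and 0.143, 0.159, 0.151 and 0.176 in KO at P21. At P35 the values were 0.157, 0.166, 0.159 and 0.145 in WT and 0.213, 0.196, 0.244 and 0.219 in KO. Every KO value was above every WT value at both ages, with log2 differences of 0.20 and 0.47 (exact permutation *P* = 0.0286 each, adjusted *P* = 0.0914). The DRP1 receptor *Mff* over *Fis1* was 1.99, 1.98, 2.02 and 1.91 in WT and 1.25, 1.45, 1.3 and 1.32 in KO at P35. The groups were far apart, with a log2 difference of -0.57 (exact permutation *P* = 0.0286, adjusted *P* = 0.0914), and at P21 the difference was -0.20 with overlap (exact permutation *P* = 0.0571, adjusted *P* = 0.114). Of the 4 ratios that of the 2 MICOS genes differed least at P21 and P35. *Immt* over *Chchd3* differed by 0.026 at P21 and 0.042 at P35 on the log2 scale (exact permutation *P* = 0.429 and 0.514, adjusted *P* = 0.488 and 0.514), and at P14 it was 1.53, 1.51, 1.55 and 1.5 in WT and 1.43, 1.46, 1.47 and 1.4 in KO, all KO values being lower by a small amount (log2 difference -0.087, exact permutation *P* = 0.0286, adjusted *P* = 0.0914). With 4 against 4 libraries 0.0286 is the smallest exact *P* that the 70 assignments allow, and of the 16 ratio tests 5 had that *P* and 0 passed after adjustment. Adjusted over 16 tests, a ratio at this smallest *P* can pass only if many others reach it too. No ratio could thus pass by its own separation, and the count of 0 does not show that the ratios were alike.

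**Figure D3:**
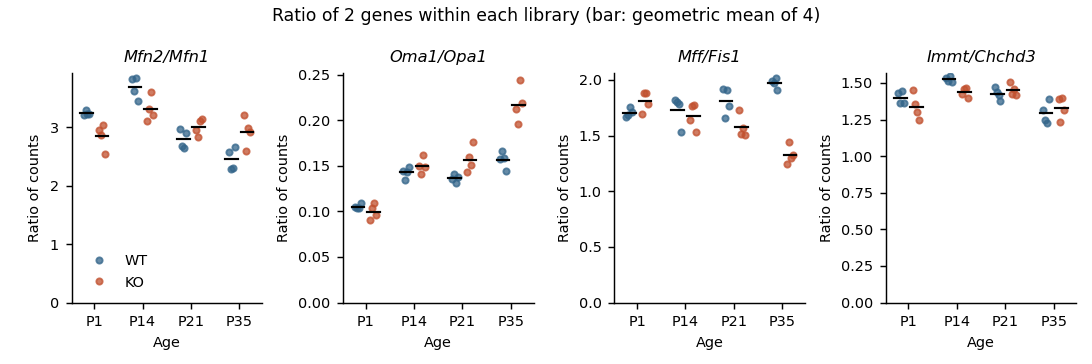
Ratio of the counts of 2 genes within each library (vertical axis, from 0) against age, WT in blue, KO in orange, with a bar at the geometric mean of 4 libraries. At P35 the *Oma1*/*Opa1* values of KO lie above and the *Mff*/*Fis1* values below all of WT, and the *Immt*/*Chchd3* values of the genotypes overlap at P21 and P35.

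Levels of different genes can be compared only per length of their RNA. With the longest coding transcript as the length, *Chchd3* (244 CPM per kb), *Mfn2* (183) and *Immt* (179) were the highest in WT at P35, where *Fis1*, *Mff* and *Mfn1* lay between 71.2 and 81.5. *Opa1* (35.3) and *Dnm1l* (35.3) were lower, and *Oma1* (18) was the lowest. In KO at P35 the mean of *Fis1* was 96.8 CPM per kb and came next after *Immt* (110.5), and *Mfn1* was at 37.6. When all annotated exons were taken as the length, *Chchd3* and *Mfn2* remained the 2 highest in every group at P21 and P35, whereas *Mff* and *Immt*, whose exons sum to 9757 and 11353 bases against longest coding transcripts of 2087 and 2728 bases, fell to 15.6 and 43 CPM per kb in WT at P35. Other places changed too, since in WT at P35 *Mfn1* (53.1) then lay above *Fis1* (45.1) and *Oma1* (16.1) above *Mff*. In KO at P35 *Fis1* (53.6) then lay above *Immt* (26.6). Places in the order therefore rest on which transcripts are used, which a gene count does not show.

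Over the 8 group means, each gene's course was compared with that of the others by the root mean square (r.m.s.) difference of log2 CPM after centring each gene on its own mean. The 2 cristae genes were the most alike (0.0734), *Opa1* was close to both (0.0759 to *Immt* and 0.104 to *Chchd3*), *Mfn1* and *Mfn2* differed by 0.166 and *Fis1* and *Mff* by 0.158. The farthest pair was *Mfn1* and *Fis1* (0.646). Among 10452 genes with a mean of at least 5 CPM, the nearest to *Opa1* were *Aars2* (0.0505), a mitochondrial alanyl-tRNA synthetase, and *Oxnad1* (0.0543). For *Chchd3* they were *Ndufv2* (0.0479) and *Ndufs7* (0.0512), subunits of respiratory complex I, and for *Immt* 2310061I04Rik (0.0529) and the complex I assembly factor gene *Ndufaf1* (0.0581). *Mfn2* was nearest to *Gfm2* (0.0825), a mitochondrial translation factor, and *Cox6a2* (0.0918), the muscle form of a cytochrome *c* oxidase subunit, and *Mfn1* to *Zfp106* (0.0929) and *Ntng2* (0.0953). *Oma1* lay nearest to *Nfs1* (0.0608), a cysteine desulfurase for iron-sulfur clusters, and *Kcnj11* (0.0669). *Dnm1l* lay nearest to *Dnajc11* (0.0762), itself linked to MICOS, and *Iars* (0.0818). *Fis1* was nearest to *Atp6v1e1* (0.04), a subunit of the vacuolar proton pump, and *Snapin* (0.0473), and *Mff* to *Tatdn3* (0.0485) and *Mrps24* (0.0504), a mitochondrial ribosomal protein. The 8 means share libraries and scaling across genes, so these distances are descriptions only.

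Further genes of the same processes were counted by list, and their shares stand beside those of all genes, of which 9.57% passed as lower and 11.4% as higher at P21, and 20.1% and 21.4% at P35. Of 14 tested genes of fusion and OPA1 processing, 2 (14.3%) were lower at P21, and at P35 7 (50%) were lower and 1 was higher (median log2 difference -0.23). The m-AAA protease genes *Spg7* (-0.55, adjusted *P* = 0.00189) and *Afg3l2* (-0.56, adjusted *P* = 0.00236) and the outer membrane ubiquitin ligase gene *Mul1* (-0.39, adjusted *P* = 0.00257) had the smallest adjusted *P* at P35. *Afg3l2* (-0.41, adjusted *P* = 0.0188) and *Slc25a46* (-0.20, adjusted *P* = 0.0432), a carrier-like protein of the outer membrane, were the 2 that were lower at P21.

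Of 14 other fission genes, 3 (21.4%) were lower and 2 (14.3%) higher at P21, and 4 (28.6%) were lower and 0 higher at P35 (median -0.084), where 20.1% of all genes were lower. *Mtfp1*, an inner membrane protein of fission, fell from 89.6 ± 11.3 to 47.4 ± 3.58 CPM at P21 (log2 difference -0.91, adjusted *P* = 0.000552) and from 82.5 ± 14.6 to 36.3 ± 5.04 CPM at P35 (-1.16, adjusted *P* = 0.000333), means ± SD of WT and KO, a larger difference than that of any of the 9 genes at either age. *Akap1*, which anchors protein kinase A at mitochondria, was lower at P21 (-0.56, adjusted *P* = 0.00168), and *Spire1*, an actin nucleator, was higher (0.46, adjusted *P* = 0.00426). At P35 *Mtfr1* (-0.43, adjusted *P* = 0.00124) and *Mief1*, a DRP1 receptor gene (-0.38, adjusted *P* = 0.0013), were lower.

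Of 17 other genes of MICOS and cristae, 5 (29.4%) were lower at P21, and at P35 7 (41.2%) were lower and 1 higher (median -0.24). The MICOS subunit gene *Apoo* went with *Immt* and *Chchd3* (-0.35 at P21, adjusted *P* = 0.00551, and -0.78 at P35, adjusted *P* = 0.000112). *Chchd10*, a protein of the intermembrane space, had values of -0.31 (adjusted *P* = 0.0149) and -0.71 (adjusted *P* = 0.000501). *Letm1*, an inner membrane ion exchanger, was lower at P21 (-0.36, adjusted *P* = 0.00583), and *Ptpmt1*, a phosphatase of cardiolipin synthesis, at P35 (-0.49, adjusted *P* = 0.00134).

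Of 11 mitophagy genes, 2 (18.2%, against 11.4% of all genes) were higher at P21, the autophagy adaptor *Sqstm1* (0.75, adjusted *P* = 0.00342) and the autophagy receptor gene *Calcoco1* (0.28, adjusted *P* = 0.0416), and 0 were lower. At P35, 1 (9.09%) was higher and 4 (36.4%) were lower, among them the mitophagy receptors *Bcl2l13* (-0.27, adjusted *P* = 0.0182) and *Fundc1* (-0.30, adjusted *P* = 0.0185) and *Fundc2* (-0.43, adjusted *P* = 0.00125).

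Genes of protein import and of matrix enzymes were counted for reference. Of 17, 11 (64.7%) were lower at P21 (median -0.28), and 14 (82.4%) were lower and 1 higher at P35 (median -0.47). The tricarboxylic acid cycle enzyme genes *Mdh2* (-0.87, adjusted *P* = 0.000509) and *Cs* (-0.81, adjusted *P* = 0.000327) were lower at P35, beside -0.89 for *Mfn1* and -0.84 for *Opa1*. At P21 *Cs* (-0.44, adjusted *P* = 0.00285), *Mdh2* (-0.45, adjusted *P* = 0.0026) and the import motor gene *Timm44* (-0.41, adjusted *P* = 0.0026) had the smallest adjusted *P* of the list. The median of the 9 genes was -0.38 at P21 and -0.64 at P35, and that of all genes tested was 0.0083 and 0.035. The lists were not compared by a test, so that nothing is said of the 9 being apart from other mitochondrial genes.

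**Figure D4:**
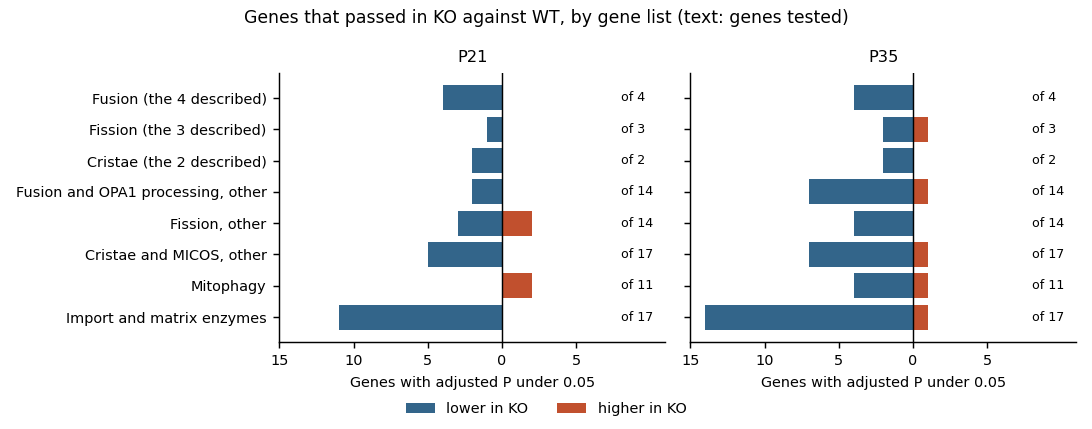
Number of genes with an adjusted *P* under 0.05 in KO against WT (horizontal axis; lower in KO to the left of 0, higher to the right) for each gene list at P21 and P35, with the genes tested printed at the right. At P35 the import and matrix list has 14 of 17 lower, and the fusion, fission and cristae genes described here 4 of 4, 2 of 3 and 2 of 2. These counts are on the TMM scale, and with library totals *Oma1*, *Mff* and *Dnm1l* did not pass as lower at P35.

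In RNA of whole muscle a lower level can come from fewer cells of a type or from less RNA per cell, and these cannot be told apart. The counts of markers stand beside the shares of all genes. These were 9.57% lower and 11.4% higher at P21, and 20.1% lower and 21.4% higher at P35. Of 8 myofibre markers, 3 were lower in KO at P21 and 5 at P35, where their summed level was 101900 to 155500 CPM in WT and 65610 to 90960 CPM in KO, and none was at 0. All 8 had negative log2 differences at P35 (-0.98 to -0.37, median -0.65). Of 6 endothelial markers, 4 were lower at P21 and 5 at P35 (summed level 356.1 to 656.2 CPM in WT and 308.8 to 382.0 in KO at P35). Of 7 macrophage markers, 5 were higher at both ages, with 1 lower at P35 (70.13 to 92.21 CPM in WT and 81.29 to 112.1 in KO at P35). Adipocyte markers were higher at P35 for 4 of 6 (238.9 to 379.8 CPM in WT and 371.7 to 509.3 in KO), and Schwann cell markers for 2 of 5 (87.24 to 547.2 CPM in WT and 292.5 to 1176 in KO). Of 6 fibroblast markers 1 (16.7%) was higher at P21 and 1 (16.7%) at P35. Of 5 red cell markers 1 (20%) was lower at P21 and 0 at P35, and of 4 satellite cell markers 3 (75%) were lower at P21 and 2 (50%) at P35. The keratinocyte list could be tested for 1 of its 6 markers at P21 and P35, which did not pass. The part of these shifts, and of the lower share of mitochondrially encoded RNA in KO, in the levels of the 9 genes was not tested.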

How the data were processed

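The authors isolated poly(A) RNA, made directional libraries and aligned paired-end reads to GRCm38 with STAR 2.6.1. They deposited 1 table that gives an expected count for every gene in each library, without scaling between libraries. The submitters' processing notes name RSEM 1.2.22, whereas the study's methods name HTSeq, and the annotation release and the use of strand in counting are not given in the sources used here. RSEM divides multiply aligned reads among genes, and 4.26% of values were not whole numbers, but 0% of those of the 9 genes. Totals of 49321035 to 85631408 per library set the precision. Molecular identifiers are not mentioned, so counting error is the least error these counts carry.

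Groups came from the sample labels. Counts were rounded and tested in R 4.3.3 with edgeR 4.0.16 (filterByExpr, TMM, glmQLFit, glmQLFTest, two-sided, Benjamini-Hochberg over all genes tested), within an age for genotype, within a genotype for age, and in 1 fit of 32 libraries for their interaction. A gene passed at an adjusted *P* under 0.05, and a DEG also needed an adjusted *P* under 0.01 and a change over 1.5-fold. Standard errors and 95% intervals are those of the edgeR fit. Ratios were tested by exact permutation over 70 assignments, adjusted over 16 tests. Same-numbered WT and KO libraries at P14 deviated together from their group means (correlations 0.514, 0.59, 0.413 and 0.81), so the blocked fit is given beside that age, which was not so at P1, P21 or P35. The numbers come from the labels.

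The alternatives were RLE size factors, library totals, no filter on low counts, removal of mitochondrially encoded genes, a replicate block, DESeq2 1.42.0, 1 fit of all 32 libraries or of 16, and leaving out each library. The edgeR step was tested on simulated counts with known changes. The lists covered fusion and OPA1 processing, fission, cristae and MICOS, mitophagy, import and matrix enzymes, and markers of 9 cell types. The 9 genes and these lists were chosen with earlier results of these data known. Every member is named in every comparison, and from each other pathway list the 3 genes with the smallest adjusted *P* among those that passed at P21 and at P35. For 1 gene of these lists the values are not reported here. The 2 nearest genes of each member are those with the smallest r.m.s. difference of their 8 centred group means of log2 CPM. Symbols, coordinates and lengths came from GENCODE M21, with a symbol for 54723 of 54838 genes, and promoters (found for all 9 genes) from RefSeq on GRCm38.p6. Protein sequences were not analysed here. Figures were drawn with matplotlib 3.10.9.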

Additional observations from a re-analysis of the deposited data

Results flagged for a closer look

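In all, 6 values stood apart from the other 3 of their group by more than Dixon's limit for 4 values. They were *Mfn2* in KO P21 replicate 1 (745.8 CPM, the highest), *Opa1* in WT P1 replicate 2 (67.61 CPM, the highest), *Chchd3* in the same library (108.0 CPM, the highest), *Dnm1l* in WT P21 replicate 1 (200.8 CPM, the highest), the *Mfn2*/*Mfn1* ratio in WT P1 replicate 2 (3.301, the highest) and the *Mff*/*Fis1* ratio in WT P14 replicate 4 (1.534, the lowest). With 104 groups of 4 examined, chance alone would give about 5.2 such values. The 6 are not spread evenly, since 3 came from WT P1 replicate 2, which was the highest of the 4 WT P1 libraries for all 9 genes. Without that library 0 of the 9 passed at P1 and 9 of the 9 from P1 to P14 in WT, as with it. Without KO P21 replicate 1 *Mfn2* still passed at P21, and without WT P21 replicate 1 *Dnm1l* still passed at P21. The KO effect on *Opa1* differed between P21 and P35 by -0.397 on the log2 scale in the test of the difference itself, a call that held in 5 of the 16 fits that left out 1 library.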

How the results depend on the processing

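Counts of members that passed in either direction were compared with the values above. They kept within 1.5 times for KO against WT at P1, P21 and P35 and for P14 against P1 in both genotypes. This held under every alternative and without any 1 library. By direction it did not hold, since under library totals the count of lower members at P35 went from 8 to 5. At P21 that scaling gave 6 lower and 2 higher in place of 7 and 0. At P14 the count went from 0 to 1 (*Opa1*) with a replicate block. The WT count from P21 to P35 went from 2 to 1 without a filter on low counts and was 0 to 2 without 1 library. The KO count from P14 to P21 went from 1 to 0 with a replicate block and was 0 to 1 without 1 library. For the change of the KO effect from P14 to P21 the count went from 0 to 1 (*Dnm1l*) with RLE size factors, with the mitochondrially encoded genes removed, in DESeq2 and with only the 16 libraries of the 2 ages. From P21 to P35 it went from 1 to 0 with RLE size factors, library totals, no filter on low counts, a replicate block or only the 16 libraries, and was 0 to 1 without 1 library. The block changed no other member's call except those given above and, from P14 to P21 in WT, those of *Mfn2* (adjusted *P* = 0.0665) and *Chchd3* (0.0603).

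Signs turned under library totals for *Fis1* at P1 (0.0229), for *Mfn1* (0.0538), *Mff* (0.0746) and *Chchd3* (0.0359) at P14, and for *Oma1* (0.0375) and *Mff* (0.0978) at P35. The P35 values of these 2 had passed as lower. They turned for *Mfn1* at P1 with a replicate block (-0.00899) and in 1 fit of all 32 libraries (-0.000782), for *Dnm1l* at P14 with RLE size factors (-0.000223) and in DESeq2 (-0.00076), and for *Mff* from P14 to P21 in WT with RLE size factors (0.011), with the mitochondrially encoded genes removed (0.0115) and in DESeq2 (0.0155). Under library totals they also turned for *Mff* in KO from P14 to P21 (-0.0116) and from P21 to P35 (0.0775), and, in the change of the KO effect, for *Dnm1l* (0.0622) and *Oma1* (0.102) from P21 to P35 and for *Mfn1*, *Mfn2*, *Opa1* and *Immt* from P1 to P14 (0.0148 to 0.044). The other turns were of *Oma1* in KO from P21 to P35 with RLE size factors (-0.00337) and in DESeq2 (-0.00805), of the change of the KO effect on *Mff* from P14 to P21 without a filter (-0.0111) and of that on *Chchd3* from P1 to P14 with 16 libraries (-0.00116). Without 1 library the log2 differences at P1 ran from -0.105 to 0.138 (*Mfn1*), -0.309 to 0.00484 (*Mfn2*), -0.107 to 0.0205 (*Fis1*), -0.0102 to 0.122 (*Mff*) and -0.158 to 0.0127 (*Chchd3*). At P14 they ran from -0.14 to 0.0699 (*Mfn1*), -0.0369 to 0.0252 (*Dnm1l*), -0.0777 to 0.145 (*Fis1*), -0.0691 to 0.0476 (*Mff*) and -0.139 to 0.0371 (*Chchd3*). For *Mff* they ran from -0.0144 to 0.0535 at P21 and from -0.0389 to 0.0575 in the WT step from P14 to P21. None of these had passed apart from *Oma1* and *Mff* at P35, and the cause was not tested. With n=4 the exact test of a ratio cannot fall below 0.0286, or below 0.125 when the same-numbered libraries are paired, so that no ratio could pass the paired test. In the unpaired test none could pass after adjustment unless many others were at 0.0286 too.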
